A study of Homo sapiens with 6 samples.

Results

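AP-1 is a transcription factor assembled as a dimer of basic leucine zipper proteins, and the genes described here are 8 that encode its subunits: FOS, FOSB, FOSL1 and FOSL2 of the FOS family, JUN, JUNB and JUND of the JUN family, and ATF3, a stress-induced relative that pairs with JUN proteins. They were taken by gene symbol, whatever their values, as 8 rows of the 61552 genes in the deposited table. FOS family proteins form stable dimers only with a partner such as a JUN protein, whereas JUN proteins also pair with each other, so the mix of subunits sets which dimers a cell can make. FOS, FOSB, JUN, JUNB and ATF3 are early response genes, induced quickly and briefly by growth factors or stress, while FOSL1, FOSL2 and JUND are known for slower or steadier expression. In epithelial tumours FOSL1, also called FRA-1, is known for its link to invasion and is stabilised as a protein by the ERK kinases.

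Poly(A) RNA was sequenced from SKOV3, an established human line from an ovarian cancer in which the receptor gene ERBB2 is amplified, to ask how fenbendazole changes its transcriptome. Treatment lasted 48 h, with 1 µM fenbendazole (a benzimidazole used against worms, which binds tubulin) or with the vehicle, DMSO. There were 3 libraries in each group, named by the numbers in their titles: fenbendazole 7, 8 and 9, and DMSO 10, 11 and 12. Nothing in the labels says that the libraries came from separate cultures, so p-values reflect the spread among these libraries alone, and that spread may be technical.

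Libraries held 14127578 to 17452459 counts with fenbendazole and 13170775 to 22128930 counts with DMSO, and 3 counts correspond to 0.132 to 0.223 CPM (counts scaled to library size by edgeR's TMM method). DMSO 11 stood apart from the other 5 libraries, with a median absolute log2 distance of 0.56 per gene, against 0.20 to 0.27 for the others. Its deviation followed base composition: genes of at least 60% GC lay at a median log2 deviation of 0.98 in it and at -0.28 to -0.13 in the other 5 libraries. Genes under 40% GC lay at -0.62 in it and at 0.05 to 0.19 in the others. Results of the subunits that rest on it are therefore given with and without it. The 8 ovarian carcinoma markers were all measured, with ERBB2 at 4394 ± 212 CPM with fenbendazole and 10757 ± 4454 CPM with DMSO (SD, n = 3 each), PAX8 at 210.5 and 275.6 CPM, and WT1 under 1 CPM in both groups on average. ERBB2 (log2 fold change -1.29 ± 0.265, SE, adjusted p = 0.0422) and MUC1 (-1.05 ± 0.198, adjusted p = 0.0299) fell, and both calls were lost without fenbendazole 7, 8 or 9 or DMSO 10 (adjusted p from 0.0797 to 0.206) and in the FPKM fit without a filter (0.226 and 0.0836). Without DMSO 11, ERBB2 was at -0.89 ± 0.0585. With offsets for GC content and length ERBB2 was at -0.99 ± 0.0829 (adjusted p = 1.94e-05) and MUC1 at -0.36 ± 0.456 (adjusted p = 0.631). In that fit 21.8% of 16975 genes passed. Of 8 markers of other cell types, CD3E had 0 counts in every library and 4 more were too low to be tested. Their summed level was 55.2 to 56.8 CPM with fenbendazole and 53.2 to 100.003 CPM with DMSO, mostly from COL1A1 (39.9 and 51.6 CPM) and PECAM1 (12.2 and 10.3 CPM). HBB was at 2.34 ± 1.54 CPM with fenbendazole and 8.18 ± 1.55 CPM with DMSO (-1.79 ± 0.444, adjusted p = 0.0744). It was called lower with DESeq2, limma-voom, the filtered FPKM fits and the GC and length offsets, and without DMSO 11 or fenbendazole 9 (adjusted p from 0.00227 to 0.0453). The part of these markers in the results below was not tested. In bulk RNA, fewer cells of a type and less RNA per cell cannot be told apart.

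FOSL1, FOS and FOSB rose with fenbendazole, and FOSL2, the 3 JUN genes and ATF3 did not pass the test with all 6 libraries. Of the 8 subunits 3 were higher and 0 lower at a Benjamini-Hochberg adjusted p of 0.05 in edgeR's quasi-likelihood test, where 4.03% of 17363 genes passed, 3.11% higher and 0.921% lower. The 700 genes past the threshold were 540 higher and 160 lower ones, or 455 and 231 with upper-quartile scaling. The median log2 fold change of the 8 subunits was 0.67, beside -0.06 over all genes tested. All 8 passed the filter on low counts, but FOSB reached its 0.607 CPM in 3 fenbendazole and 0 DMSO libraries, so it entered the test only through the group where it was high. The CPM values of the groups did not overlap for 6 subunits, 5 higher and JUNB lower with fenbendazole, where 32.6% of genes tested had groups that did not overlap, 17% higher and 15.5% lower.

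**Figure D1:**
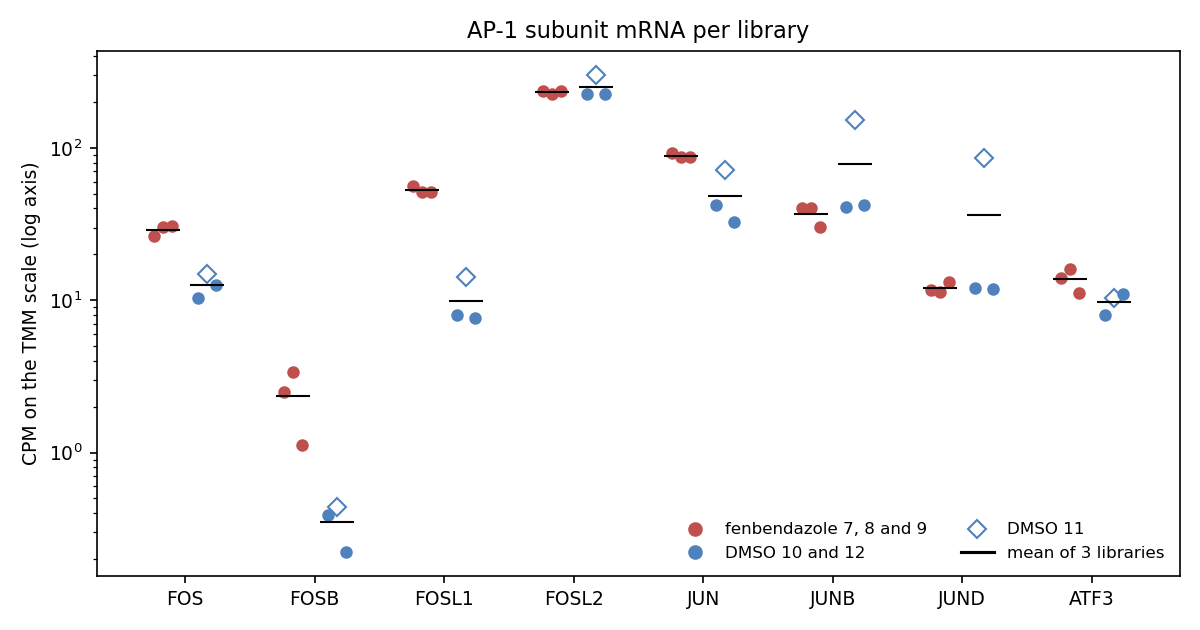
Level of each AP-1 subunit in every library, in CPM on a log axis, with fenbendazole points left of DMSO points, a bar at each group mean, and DMSO 11 as an open diamond. FOSL1 lies between 51.3 and 56.3 CPM with fenbendazole and between 7.59 and 14.2 CPM with DMSO, and the DMSO 11 points of JUNB and JUND lie far above those of the other DMSO libraries.

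FOSL1 showed the call that held in every setting tried. This FOS family member, which lacks the transactivating end of FOS, is annotated on the minus strand of chromosome 11 from 65892049 to 65900573 (GRCh38), with 4 exons in its longest transcript. It was at 56.3, 51.7 and 51.3 CPM in fenbendazole 7, 8 and 9, against 8.02, 14.2 and 7.59 CPM in DMSO 10, 11 and 12. The groups lay well apart, and DMSO 11 was the highest of the DMSO libraries. The log2 fold change was 2.41 ± 0.265 (SE), a 5.32-fold rise (adjusted p = 0.00402). Without each library in turn its adjusted p lay between 3.33e-09 and 0.0341. Without DMSO 11 the log2 fold change was 2.77 ± 0.127. The processed pseudogene FOSL1P1, which could share reads with it, had 0 to 4 counts per library.

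FOS, the founding member of the family, lies on the plus strand of chromosome 14 from 75278826 to 75282230, in 4 exons. It was at 26.2, 30.2 and 30.6 CPM in fenbendazole 7, 8 and 9, against 10.3, 14.8 and 12.5 CPM in DMSO 10, 11 and 12. Every fenbendazole library was above every DMSO library, and DMSO 11 was the highest of the DMSO libraries. The log2 fold change was 1.21 ± 0.193 (SE), a 2.31-fold rise (adjusted p = 0.0157). The call was lost without fenbendazole 7, 8 or 9 (adjusted p = 0.0831, 0.105 and 0.108) and without DMSO 10 (0.0651), with log2 fold changes between 1.09 and 1.28.

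FOSB, whose product also pairs with JUN proteins, lies on the plus strand of chromosome 19 from 45467995 to 45475179, in 4 exons, and was the least abundant subunit. It had 38, 47 and 19 counts in fenbendazole 7, 8 and 9, against 7, 10 and 3 counts in DMSO 10, 11 and 12. Counts were low in both groups, and fenbendazole 9 was the lowest of its group. On the CPM scale these were 2.52, 3.39 and 1.12, against 0.390, 0.439 and 0.223. The fitted log2 fold change was 2.67 ± 0.534 (SE, adjusted p = 0.0385). The call was lost without fenbendazole 7 or 8 (adjusted p = 0.172 and 0.173), without DMSO 10 or 12 (0.122 and 0.0844) and with limma-voom (0.0735). The gene lies within the span of ERCC1 on the opposite strand, but the 2 share 0 exonic bases, and ERCC1 stood at a log2 fold change of -0.14 ± 0.201 (adjusted p = 0.722).

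FOSL2, also called FRA-2, lies on the plus strand of chromosome 2 from 28392448 to 28417317, in 4 exons, and had the most counts of the 8 subunits. It was at 236.6, 225.1 and 237.4 CPM in fenbendazole 7, 8 and 9, against 227.1, 302.5 and 225.1 CPM in DMSO 10, 11 and 12. The groups overlapped, and DMSO 11 alone was high. The log2 fold change was -0.11 ± 0.147 (SE, 95% interval -0.45 to 0.23, adjusted p = 0.694), and 0.051 ± 0.0618 without DMSO 11.

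The proximal promoters of FOS, FOSB and FOSL2 are shown because these genes share a sequence that the JUN promoter, shown beside them, carries in another form. Each line gives 60 bases of the sense strand, from 80 to 21 bases before the start of the transcript, from RefSeq (GRCh38.p14). The RefSeq start of FOSL2 differs from the gene start in the deposited table and lies inside the gene as given there. Capitals mark TGACGT, the core of the cAMP response element TGACGTCA, or TGACATCA, a variant known from the JUN promoter, and the TATA box TATAAA.
FOS (chr14:75278748-75278807, plus strand): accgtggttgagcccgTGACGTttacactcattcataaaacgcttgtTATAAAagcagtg
FOSB (chr19:45467916-45467975, plus strand): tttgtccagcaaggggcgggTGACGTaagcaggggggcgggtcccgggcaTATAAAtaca
FOSL2 (chr2:28392778-28392837, plus strand): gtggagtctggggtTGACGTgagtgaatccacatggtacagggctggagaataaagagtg
JUN (chr1:58784068-58784127, minus strand): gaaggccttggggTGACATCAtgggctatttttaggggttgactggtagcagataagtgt
TGACGT began 64 bases before the start in FOS, 60 in FOSB and 66 in FOSL2, and TGACATCA began 67 bases before it in JUN. TATAAA began 33 bases before the start in FOS and 30 in FOSB, and also 31 before it in JUNB and 230 before it in an ATF3 promoter. TGACATCA was also present in ATF3, 123 to 116 bases before the start, and TGACGT in JUND. Of 35116 RefSeq promoters with 250 bases before and 50 after the start, 7.98% held TGACGT on either strand, 2.61% TGACATCA, and 7.33% TATAAA on the sense strand. The full element TGACGTCA, which contains TGACGT, was in 1.85% and, among the subunits, in JUND, 200 to 193 bases before the start. The AP-1 site TGANTCA, in 7.71% of promoters, was found in FOSL2 alone, 4 to 10 bases after the start. The CArG box, in 1.29%, was in none of the windows searched. Sequence more than 250 bases before the start was not searched, so these genes may hold one there. The windows covered 7 of the 8 genes, without FOSL1, and matched letters are a description and not evidence of binding. Of the 4 genes with TGACGT in the regions searched, FOS and FOSB passed the test of expression and FOSL2 and JUND did not.

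Among the JUN genes, JUN was higher in every fenbendazole library and JUNB and JUND differed mainly through DMSO 11. JUN, the main partner of FOS proteins, has a single exon of 3540 bases in GENCODE. In the deposited table it spans a longer stretch of the minus strand of chromosome 1, from 58776845 to 58784048. It was at 92.0, 87.2 and 86.9 CPM in fenbendazole 7, 8 and 9, against 42.0, 71.3 and 32.5 CPM in DMSO 10, 11 and 12. The groups did not overlap, and DMSO 11 was the library nearest to the fenbendazole values. With all libraries the log2 fold change of JUN was 0.87 ± 0.273 (SE, 95% interval 0.23 to 1.501) and did not pass the test (adjusted p = 0.131). Without DMSO 11 it was 1.26 ± 0.107 (adjusted p = 1.56e-06), in a fit where 22.3% of 17689 genes passed, 13.1% higher and 9.23% lower. It was 1.09 ± 0.117 with offsets for GC content and length (adjusted p = 9.87e-05), where 21.8% of 16975 genes passed, 11.6% higher and 10.2% lower. DESeq2 called JUN with all libraries (0.87 ± 0.301, adjusted p = 0.0381), where 11.3% of genes passed, 6.65% higher and 4.65% lower. In each of these 3 fits 4 subunits were called, FOSL1, FOS, FOSB and JUN, all higher.

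JUNB, a partner that is a weaker activator than JUN at many sites, lies on the plus strand of chromosome 19 from 12791486 to 12793315 in a single exon. It was at 40.5, 40.5 and 30.3 CPM in fenbendazole 7, 8 and 9, against 40.8, 152.2 and 42.0 CPM in DMSO 10, 11 and 12. Fenbendazole 7 and 8 and DMSO 10 lay almost at the same level, and DMSO 11 was far above all others. The log2 fold change of JUNB was -1.08 ± 0.506 (SE, 95% interval -2.26 to 0.10, adjusted p = 0.266), and -0.15 ± 0.131 without DMSO 11 (adjusted p = 0.456). JUNB lies within the span of HOOK2 on the opposite strand, with 259 shared exonic bases, 14.2% of its exonic length, so reads of the pair may not be separated. HOOK2 was at 30.5, 29.01 and 31.0 CPM with fenbendazole, against 45.3, 61.5 and 37.7 CPM with DMSO (log2 fold change -0.68 ± 0.200, adjusted p = 0.115).

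JUND, the subunit known for steady expression in resting cells, lies on the minus strand of chromosome 19 from 18279694 to 18281622, in a single exon. It was at 11.7, 11.3 and 13.1 CPM in fenbendazole 7, 8 and 9, against 12.1, 85.3 and 11.8 CPM in DMSO 10, 11 and 12. Apart from DMSO 11 the libraries of the groups overlapped within 2 CPM of each other. The log2 fold change of JUND was -1.60 ± 0.7504 (SE, 95% interval -3.35 to 0.15, adjusted p = 0.266), and 0.015 ± 0.167 without DMSO 11 (adjusted p = 0.962).

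ATF3, a stress response factor that can repress transcription as a homodimer, lies on the plus strand of chromosome 1 from 212565334 to 212620777. It was at 13.9, 16.0 and 11.1 CPM in fenbendazole 7, 8 and 9, against 8.02, 10.4 and 10.9 CPM in DMSO 10, 11 and 12. The groups did not overlap, by a gap of less than 1 CPM between fenbendazole 9 and DMSO 12. The log2 fold change of ATF3 was 0.48 ± 0.224 (SE, 95% interval -0.04 to 1.00, adjusted p = 0.262), and 0.54 ± 0.207 without DMSO 11 (adjusted p = 0.0794).

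**Figure D2:**
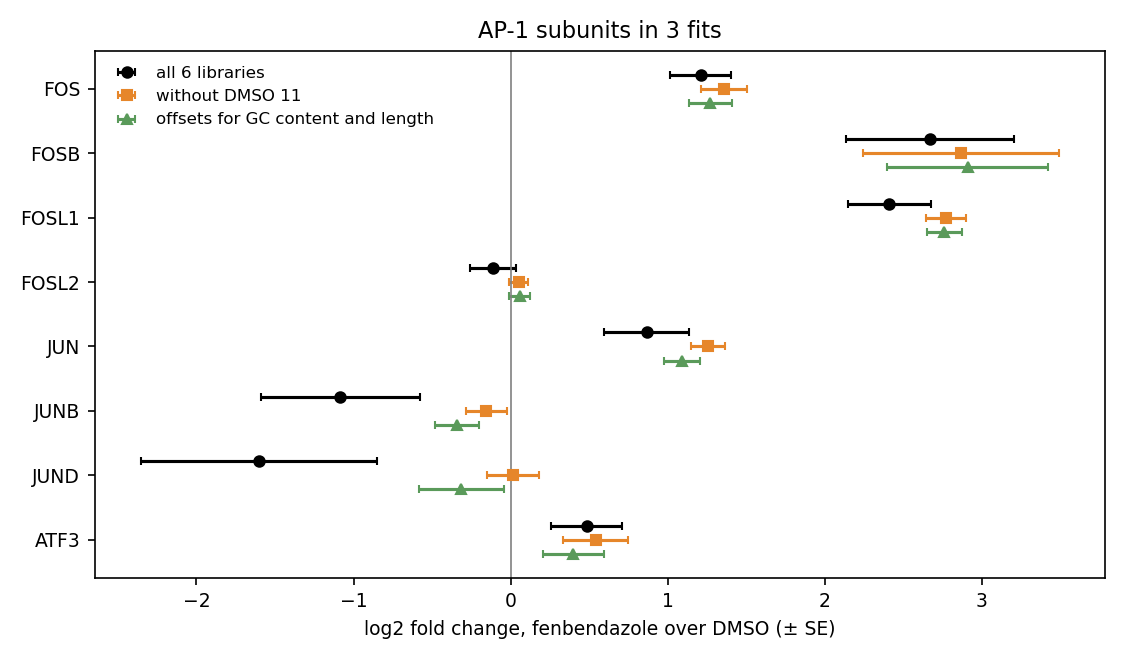
Log2 fold change of each subunit, fenbendazole over DMSO, with its standard error, from edgeR with all 6 libraries, without DMSO 11, and with offsets for GC content and length. FOSL1, FOS, FOSB and JUN are above 0 in all 3 fits, and JUNB and JUND move from -1.08 and -1.60 to -0.15 and 0.015 once DMSO 11 is left out.

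The excess of DMSO 11 over the other DMSO libraries followed the GC content of the subunits' transcripts. The ratio of DMSO 11 to the mean of DMSO 10 and 12 was 7.13 for JUND, whose longest transcript is 69.7% GC, and 3.67 for JUNB, at 64.9% GC. It was 1.92 for JUN (56.7% GC), 1.82 for FOSL1 (60.04%), 1.43 for FOSB (57.7%), 1.34 for FOSL2 (53.3%), 1.297 for FOS (52.6%) and 1.10 for ATF3 (46.7%). Among all genes with a mean of at least 5 CPM, the median of the same ratio was 3.01 for the 277 genes of at least 65% GC, with a 10th to 90th percentile range of 2.16 to 4.65. It was 2.13 (1.56 to 2.90) for the 1102 genes of 60% to 65% GC and 1.59 for those of 55% to 60%. JUND and JUNB thus lay above the 90th percentile of their GC classes, and FOSL1 lay within the range of its own. JUNB is at the upper edge of its class, and its ratio lay within the range of the class above. JUND, at the 99.8th percentile of GC content among genes tested, lies high in a class with no upper bound. Whether either exceeds genes of equal GC content was not tested. With offsets for GC content and length, the log2 fold changes were -0.31 ± 0.268 for JUND (adjusted p = 0.456) and -0.34 ± 0.141 for JUNB (adjusted p = 0.115).

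**Figure D3:**
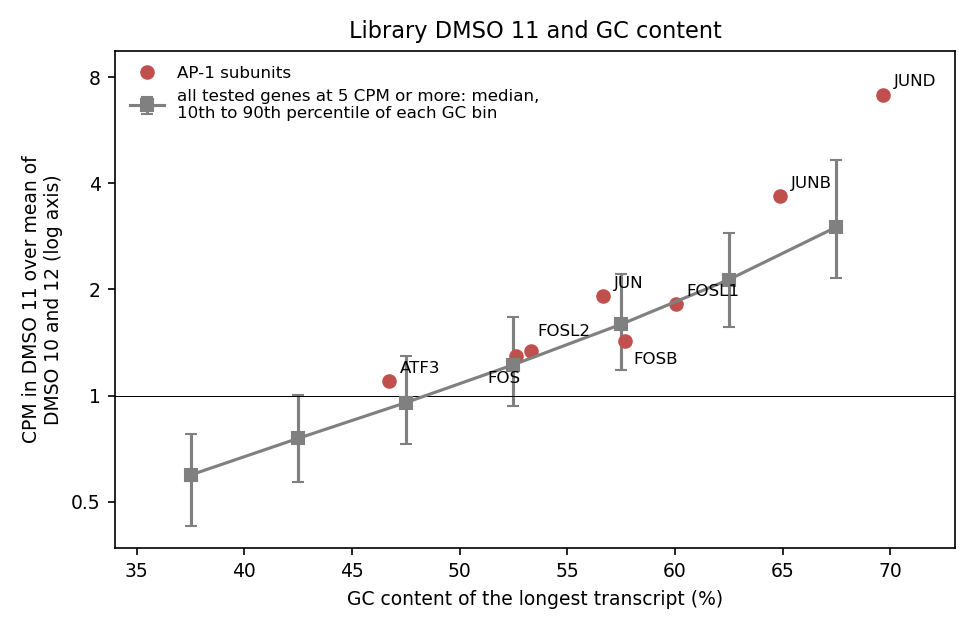
Ratio of CPM in DMSO 11 to the mean of DMSO 10 and DMSO 12, on a log axis, against the GC content of the longest transcript in percent. Grey squares and bars are the median and the 10th to 90th percentiles of genes with a mean of at least 5 CPM in each GC class, and the labelled points are the subunits, with JUND at 7.13 and JUNB at 3.67 above the bars of their classes.

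FOSL1, JUN, FOS and FOSB made up more of the family in every fenbendazole library than in any DMSO library, while the summed level of the 8 genes did not differ beyond the spread. Summed over the family the level was 479.6, 465.3 and 461.9 CPM in fenbendazole 7, 8 and 9, against 348.8, 651.1 and 342.7 CPM in DMSO 10, 11 and 12. The fenbendazole libraries lay between DMSO 11 and the other pair. The means were 468.9 ± 9.43 and 447.5 ± 176.4 CPM (SD, n = 3 each; exact two-sided permutation p = 1.0). Without DMSO 11 the DMSO mean was 345.7 ± 4.32 CPM and the log2 ratio 0.44, with an exact permutation p of 0.2, the smallest that 3 against 2 libraries allow. Without DMSO 10 or 12 the log2 ratio was -0.08 or -0.09.

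Shares were computed per library as a subunit's counts in percent of the counts of all 8, and 6 of the 8 shares had groups that did not overlap. A rise in some shares lowers the others, so these 6 are not separate results. Shares are defined within the 8 genes, so no value over all genes can be set beside this count. Each of these 6 had an exact two-sided permutation p of 0.1, the smallest that 3 against 3 libraries allow, and an adjusted p of 0.133 over the 8 shares, so none could pass 0.05. FOSL1 made up 11.7, 11.1 and 11.1% of the family's counts in fenbendazole 7, 8 and 9, against 2.30, 2.18 and 2.21% in DMSO 10, 11 and 12. Its share was nearly the same in the 3 libraries of a group, DMSO 11 included, with means of 11.3 ± 0.362% and 2.23 ± 0.0636%. JUN made up 19.2, 18.7 and 18.8% with fenbendazole, against 12.03, 10.95 and 9.49% with DMSO. FOS made up 5.47, 6.498 and 6.63%, against 2.96, 2.27 and 3.65%, and FOSB under 1% in every library.

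JUNB and JUND took smaller shares in every fenbendazole library than in any DMSO library. JUNB made up 8.43, 8.70 and 6.55% in fenbendazole 7, 8 and 9, against 11.7, 23.4 and 12.3% in DMSO 10, 11 and 12, a mean difference of -7.89 percentage points that was -4.09 without DMSO 11. JUND made up 2.43, 2.42 and 2.84% with fenbendazole, against 3.47, 13.1 and 3.45% with DMSO, a difference of -4.11 points that was -0.895 without DMSO 11. FOSL2 made up 49.3, 48.4 and 51.4% with fenbendazole, against 65.1, 46.5 and 65.7% with DMSO. Its groups overlapped (exact permutation p = 0.4) and without DMSO 11 they did not, with a difference of -15.7 points. A share falls when other subunits rise, so these values do not show that JUNB, JUND or FOSL2 transcripts fell.

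**Figure D4:**
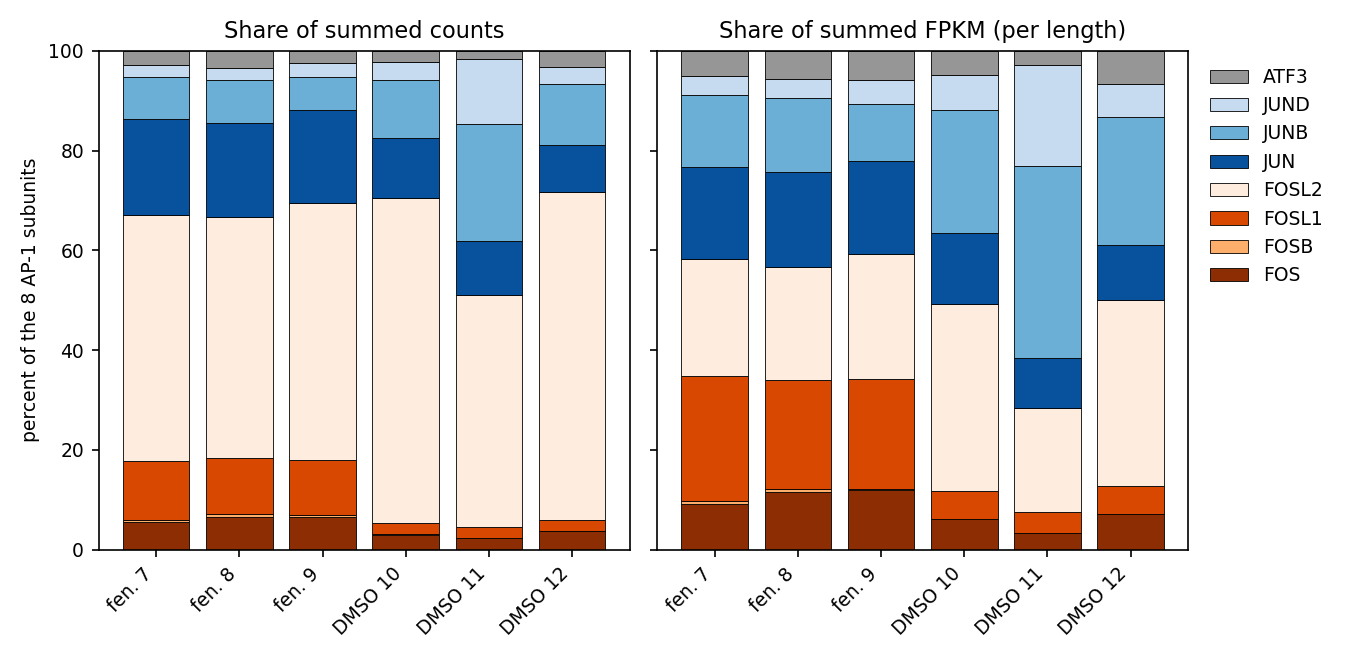
Stacked bars give the share of each subunit in the 8 AP-1 genes, in percent, per library, with fenbendazole libraries left of DMSO libraries, from counts in the left panel and from FPKM in the right. From counts FOSL1 takes 11.1 to 11.7% with fenbendazole and 2.18 to 2.30% with DMSO, and in DMSO 11 JUNB and JUND take 23.4 and 13.1%.

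Counts favour long transcripts, so levels of different subunits were compared as deposited FPKM, which are scaled by length. With fenbendazole FOSL2 (30.1 FPKM on average, range 29.3 to 31.0) and FOSL1 (29.3, range 26.6 to 33.0) came first and did not differ beyond their spread. JUN (23.7 FPKM) and JUNB (17.3) followed, then FOS (13.7), whose range of 12.2 to 14.8 overlapped that of JUNB (13.8 to 19.1). ATF3 (6.94 FPKM), JUND (5.28) and FOSB (0.562) came last, each below the one before it in every library.

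With DMSO 10 and 12 the order was FOSL2 (29.7 FPKM), JUNB (19.9) and JUN (10.1), with JUND (5.43), FOS (5.26), ATF3 (4.57) and FOSL1 (4.35) close together and FOSB (0.0609) last. FOS and ATF3 overlapped each other and each overlapped JUND or FOSL1 in its range. With DMSO 11 included, JUNB (39.4 FPKM) and JUND (17.5) stood above JUN. By group means FOSL1 ranked 2 of 8 with fenbendazole, 6 of 8 with all DMSO libraries and 7 of 8 with DMSO 10 and 12, where its range lay inside that of ATF3. On the FPKM scale the share of FOSL1 was 25.1, 21.98 and 22.2% with fenbendazole, against 5.50, 4.12 and 5.46% with DMSO. That of the 4 FOS family genes together was 58.1 ± 1.27% and 42.5 ± 12.3% (SD, n = 3 each; exact permutation p = 0.1), a difference of 15.6 percentage points that was 8.51 without DMSO 11, a setting chosen after seeing the data. On the count scale it was 67.7% and 64.4% with overlapping groups, and without DMSO 11 the direction turned, with 67.7% and 71.1%.

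The other bZIP proteins that can join AP-1 dimers and the kinases and factors upstream of it gave no call in the edgeR test with all 6 libraries and no offsets. Of 9 dimer partners tested among 13 listed, 0 passed the threshold in edgeR, DESeq2 or limma-voom. In edgeR 0 had an unadjusted p under 0.05, where 21.3% of all genes had one. Their median log2 fold change was -0.26 with all libraries and turned to 0.17 without DMSO 11. With offsets for GC content and length it was -0.01. Over all genes the median was -0.01 without DMSO 11 and -0.05 with the offsets. Among the partners with the smallest p were ATF7 (-0.26 ± 0.126, SE), ATF2 (0.37 ± 0.211) and MAFG (-0.28 ± 0.228). Of 18 upstream genes, among them the MAP kinases and ELK factors, 0 passed in edgeR and limma-voom and 1 in DESeq2, 2 had an unadjusted p under 0.05 in edgeR, and the median was 0.02. ELK3, a ternary complex factor, was at 0.42 ± 0.132 (adjusted p = 0.13) and MAPK10, the kinase JNK3, at -0.65 ± 0.261 (0.21). Without DMSO 11 they were at 0.34 ± 0.0731 (adjusted p = 0.00464) and -0.84 ± 0.194 (0.0068). MAPK3, which encodes ERK1, was at -0.53 ± 0.268 and its activator MAP2K2 at -0.57 ± 0.289, and without DMSO 11 they were at -0.17 and -0.14. Without DMSO 11, 1 partner was higher and 1 lower, and 2 upstream genes were higher and 2 lower, in a fit where 22.3% of all genes passed. With all libraries, CPM groups did not overlap for 7 upstream genes that were higher and 1 that was lower. Among the partners these were 0 and 1, where 17% of all genes were higher and 15.5% lower.

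Of 13 other immediate early genes tested among 15 listed, 2 rose and 0 fell, where 3.11% of all genes rose and 0.921% fell. Their median was 0.08, beside -0.06 over all genes. Without DMSO 11 the median of the list was 0.56, beside -0.01 over all genes. With offsets for GC content and length it was 0.30, beside -0.05. EGR1, a zinc finger factor induced with FOS, was at 54.95, 74.9 and 66.0 CPM in fenbendazole 7, 8 and 9, against 24.1, 39.9 and 27.3 CPM in DMSO 10, 11 and 12 (log2 fold change 1.10 ± 0.226, SE, adjusted p = 0.0424). KLF6, a Krüppel-like factor, was at 124.9, 114.3 and 116.0 CPM, against 72.2, 59.7 and 59.4 CPM (0.89 ± 0.133, adjusted p = 0.0125). Both genes had groups that did not overlap. NR4A3, an orphan nuclear receptor, was at 1.012 ± 0.363 (adjusted p = 0.171) and BTG2, an antiproliferative gene, at -0.62 ± 0.265 (adjusted p = 0.231). Without fenbendazole 7, 8 or 9, 0 genes of this list passed, in fits where 147 of 18211, 152 of 18291 and 149 of 17774 genes passed. Both calls, of EGR1 and KLF6, were lost in these fits, with adjusted p of 0.0774 to 0.197. EGR1 was also lost without DMSO 10 (adjusted p = 0.128) and DMSO 12 (0.0934), and without DMSO 11, where 13.1% of all genes rose, 5 genes of the list did.

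Of 22 genes known as AP-1 targets tested among 25 listed, 9 rose and 0 fell, where 3.11% of all genes rose and 0.921% fell. The median of the 22 was 0.78 on the log2 scale, beside -0.06 over all genes. This list, like the others here, was chosen with earlier results of these data known. Its count beside the share over all genes is therefore a description and not a test. These genes answer to other factors as well, and a promoter site for AP-1 was not tested in them. F3, which encodes tissue factor, was at 741.5, 696.5 and 737.4 CPM in fenbendazole 7, 8 and 9, against 163.7, 129.2 and 173.5 CPM in DMSO 10, 11 and 12 (2.22 ± 0.146, SE, adjusted p = 0.000807). CXCL8, a neutrophil chemokine, was at 148.5, 160.6 and 149.2 CPM, against 30.4, 20.01 and 40.4 CPM (2.34 ± 0.249, adjusted p = 0.00357). In both genes every fenbendazole library was more than 3 times the highest DMSO library.

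AXL, a receptor tyrosine kinase, was at 168.5, 168.4 and 162.4 CPM with fenbendazole, against 67.9, 80.7 and 64.2 CPM with DMSO (1.23 ± 0.132, SE, adjusted p = 0.00348). F3, CXCL8 and AXL kept their calls whichever library was left out. PLAU, the urokinase gene (1.02 ± 0.150, SE), CCND1, which encodes cyclin D1 (0.79 ± 0.105), HBEGF, an EGF receptor ligand (1.302 ± 0.237), EZR, which links membrane and actin (0.68 ± 0.106), and IL6 (2.48 ± 0.446) also rose with all libraries. IL6 had 7 to 13 counts per DMSO library and reached the 0.607 CPM of the filter in 3 fenbendazole libraries and 1 DMSO library, so it too was tested only through the group where it was high. Without fenbendazole 7, 8 or 9, 4 targets passed in each fit, where 147 of 18211, 152 of 18291 and 149 of 17774 genes passed. Leaving out DMSO 10 gave 5 targets, where 278 of 17711 genes passed. The calls of PLAU, CCND1, HBEGF, EZR and IL6 were lost without each fenbendazole library. Without DMSO 11, 15 rose, where 13.1% of all genes did.

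The collagenase gene MMP1 (0.20, adjusted p = 0.42), MMP13 (0.24, 0.722), the prostaglandin synthase gene PTGS2 (0.52, 0.443) and TIMP1 (0.07, 0.881), all classical AP-1 targets, did not pass the test. CPM groups did not overlap in 16 of the 22, 15 higher and 1, VEGFA, lower with fenbendazole, where 32.6% of all genes did not overlap, 17% higher and 15.5% lower. Among those 15, IL6 and CCL2 were tested only through the group where they were high, CCL2 with 0 DMSO libraries at the filter's 0.607 CPM. VEGFA was at -0.34 ± 0.147 (adjusted p = 0.242).

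**Figure D5:**
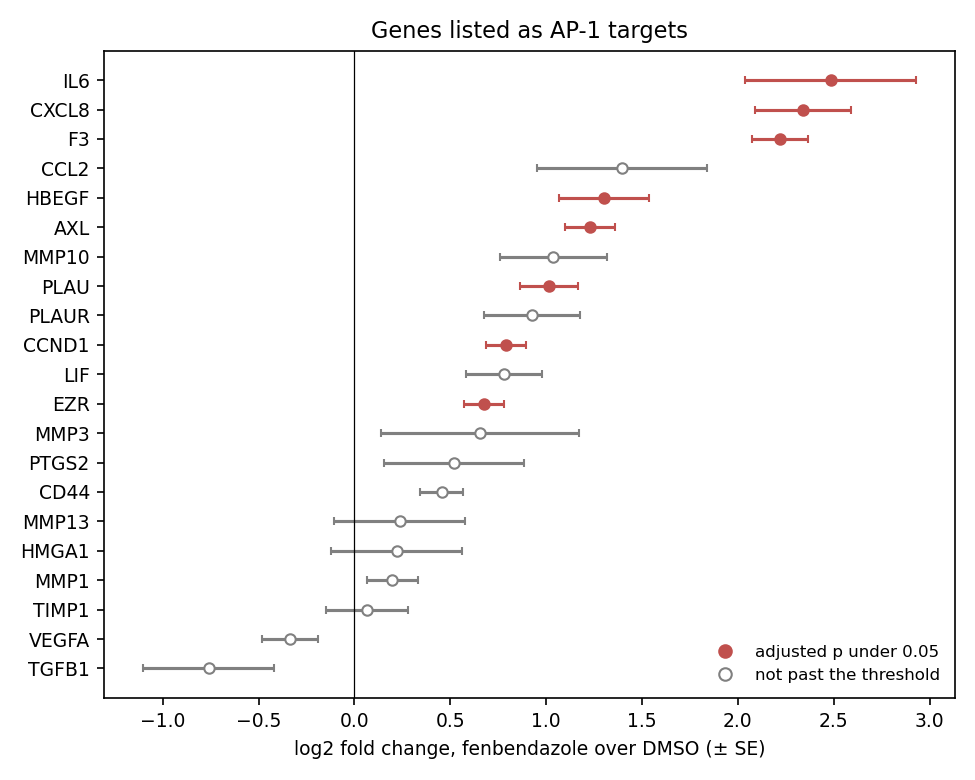
Log2 fold change, fenbendazole over DMSO, with its standard error for 21 of the 22 AP-1 target genes tested, with genes past the threshold marked. The 8 plotted genes past an adjusted p of 0.05 run from EZR at 0.68 to IL6 at 2.48, which was tested only through its fenbendazole libraries, and no gene below 0 passes.

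For the 3 subunits that rose, the genes with the most similar profiles over the 6 libraries were found among 11595 genes with a mean of at least 5 CPM, by the root mean square difference of log2 CPM after centring each gene. They were MYBL2 (0.109), KIF18B (0.137) and PLK1 (0.138) for FOSL1, and MT2A (0.116), E2F2 (0.119) and ZBED2 (0.121) for FOS. For FOSB, at low counts, the nearest were KRT17 (0.403), CDCA8 (0.416) and PLK1 (0.418), several times farther from it.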

How the data were processed

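Poly(A) RNA of 3 fenbendazole and 3 DMSO libraries was analysed from 1 table. By its headers it holds a Count and an FPKM column per library. The Count columns were taken as raw read counts per gene, and the FPKM as computed by the authors. The submitters' processing notes name GRCh38 and the tools HISAT2 2.1.0, StringTie 1.3.4b, CASAVA 1.8 and edgeR. Which program counted reads, on which strand and with which annotation is not given in the sources used here, so reads of overlapping genes may not be separated. Gene positions are those of the deposited table, while exon counts and shared exonic bases come from GENCODE, so the annotations can differ.

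The count test was that of edgeR 4.0.16 in R 4.3.3, with TMM scaling, its filter on low counts, robust quasi-likelihood F test, and Benjamini-Hochberg adjustment over 17363 genes with a threshold of 0.05. Standard errors come from the F statistic. Shares and sums were tested by exact two-sided permutation (scipy 1.17.1). Alternatives were DESeq2 1.42.0, limma-voom and limma 3.58.1 on log2 FPKM plus 1 or 0.1 (the filtered fits kept genes with FPKM of at least 1), other scalings and filters, offsets for GC content and length (longest GENCODE transcript, 97.8% of genes covered), and leaving out each library. The fit was tested on simulated data. The lists were AP-1 subunits, dimer partners, upstream kinases and factors, other immediate early genes, AP-1 targets and cell markers. All 8 subunits were named, in each other list up to 4 tested genes with the smallest p, and for each called subunit the 3 genes of most similar profile. Some genes that the rule names are not reported here. Other target genes were named after their values were seen. Members and lists were chosen with earlier results of these data known.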

Additional observations from a re-analysis of the deposited data

How the results depend on the processing

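Against 700 genes with all libraries, DESeq2 called 1963, limma on log2(FPKM + 1) without a filter 272, and offsets for GC content and length 3697 (1972 higher and 1725 lower). Leaving out 1 library gave 147 to 3946. The number of AP-1 subunits called was 2 to 4 under the other settings and 1 to 4 without 1 library. For dimer partners it was 1 with GC offsets and 0 to 2 without 1 library. For upstream genes it was 1 with DESeq2, 3 with GC offsets and 0 to 4 without 1 library. For immediate early genes it was 1 in each of the 3 FPKM fits and 0 to 5 without 1 library. For AP-1 targets it was 4 in the FPKM fit without a filter, 15 with GC offsets and 4 to 15 without 1 library. The log2 ratio of the family total ran from -0.092 to 0.44 without 1 library, turning to -0.084 without DMSO 10 and -0.092 without DMSO 12. Directions turned for FOSL2 (0.058 with GC offsets, 0.051 without DMSO 11, -0.18 at the lowest without 1 library), JUND (0.015 without DMSO 11, -2.02 at the lowest), MAFG (0.034 without DMSO 11, -0.43 at the lowest), COL1A1 (0.13 with GC offsets, 0.11 without DMSO 11, -0.59 at the lowest) and PECAM1 (-0.028 in each of the 3 FPKM fits), none of them called, and the cause was not tested. In counts, the difference in share without 1 library ran from -3.34 (without DMSO 11) to 6.98 percentage points for the FOS family, and from -7.95 to 3.16 (without DMSO 11) for the JUN family, both turned by leaving out DMSO 11. FOSB was not among the genes of the filtered FPKM fits, and had an adjusted p of 0.272 in the FPKM fit without a filter. No paired analysis was possible because fenbendazole and DMSO libraries carry different numbers. At the depth of these libraries, FOSB in DMSO (3 to 10 counts) is close to the floor of 3 counts.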
